A study of Mus musculus with 16 samples.

Results

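The 9 genes described here make nitric oxide (NO), supply or restrain its synthesis, or act downstream of it: the NO synthases Nos1, Nos2 and Nos3, the Nos1 adaptor Nos1ap, the arginine-recycling enzyme Ass1, the methylarginine hydrolase Ddah1 and its relative Ddah2, and the cyclic GMP (cGMP)-dependent protein kinases Prkg1 and Prkg2. They were chosen by gene symbol from a table of 53679 symbols, and the FPKM values (fragments per kilobase of transcript, scaled to the mapped fragments of the library) of their 44 isoforms were summed per gene. RNA-seq was done on 16 cultures of wild-type primary cortical neurons from mouse embryos at embryonic day 15, with 4 cultures in each group. All cultures were grown in neurobasal medium with B27 and received vehicle or 10 μM of the atypical antidepressant tianeptine (TIA) on day 8 in vitro. After 24 h they were exposed to 3 h of oxygen-glucose deprivation (OGD), a culture model of ischemia, or to sham, and RNA was taken after 6 h of reoxygenation. The groups were sham with vehicle (CONTROL-VEH, cultures 1 to 4), sham with TIA (CONTROL-TIA, cultures 5 to 8), OGD with vehicle (OGD-VEH, cultures 9 to 12) and OGD with TIA (OGD-TIA, cultures 13 to 16), and the labels call the vehicle cultures untreated. The cultures are described as biological replicates, but nothing in the labels says that they came from separate litters or preparations, so p-values measure the spread between these cultures, which may be partly technical. Single-end 50-base reads of poly(A) RNA were sequenced, and between 20500000 and 26200000 reads per culture were estimated from the FPKM that 1 read is worth. The study states a lower range for aligned reads.

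NO synthases convert arginine and oxygen into NO and citrulline. In neurons, neuronal NO synthase is activated by calcium-loaded calmodulin and sits close to NMDA receptors through the scaffold protein PSD-95, so that glutamate-driven calcium entry raises NO, which is long known as a contributor to excitotoxic injury in ischemia. NO binds soluble guanylate cyclase, and the cGMP that results activates the cGMP-dependent kinases and is removed by phosphodiesterases. Asymmetric dimethylarginine, released from methylated proteins, blocks NO synthases, and argininosuccinate synthase turns citrulline back towards arginine.

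In CONTROL-VEH the genes differed widely in level per length. Mean FPKM was 192 ± 27.7 (SD, n = 4) for Ddah2, 87.5 ± 12.3 for Ddah1, 19.1 ± 2.88 for Nos1ap, 5.46 ± 0.720 for Nos1, 5.33 ± 2.74 for Ass1, 2.62 ± 0.517 for Prkg1 and 1.06 ± 0.0938 for Prkg2. The ranges of neighbours in this order did not overlap, except for those of Nos1 and Ass1. Short isoforms raise a summed FPKM, and estimated reads ordered some of these genes the other way. Mean estimated reads in CONTROL-VEH were 6718 for Ddah1 and 2411 for Ddah2, and 1237 for Nos1 and 573 for Nos1ap. Nos3 was at 0.0693 ± 0.0385 and Nos2 at 0.0170 ± 0.0164 FPKM, with overlapping ranges. Nos3, the endothelial type, and Nos2, the inducible type, stayed under the 0.5 FPKM mean that was required of a gene for the main test. The other 7 genes passed this filter in every comparison.

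**Figure D1:**
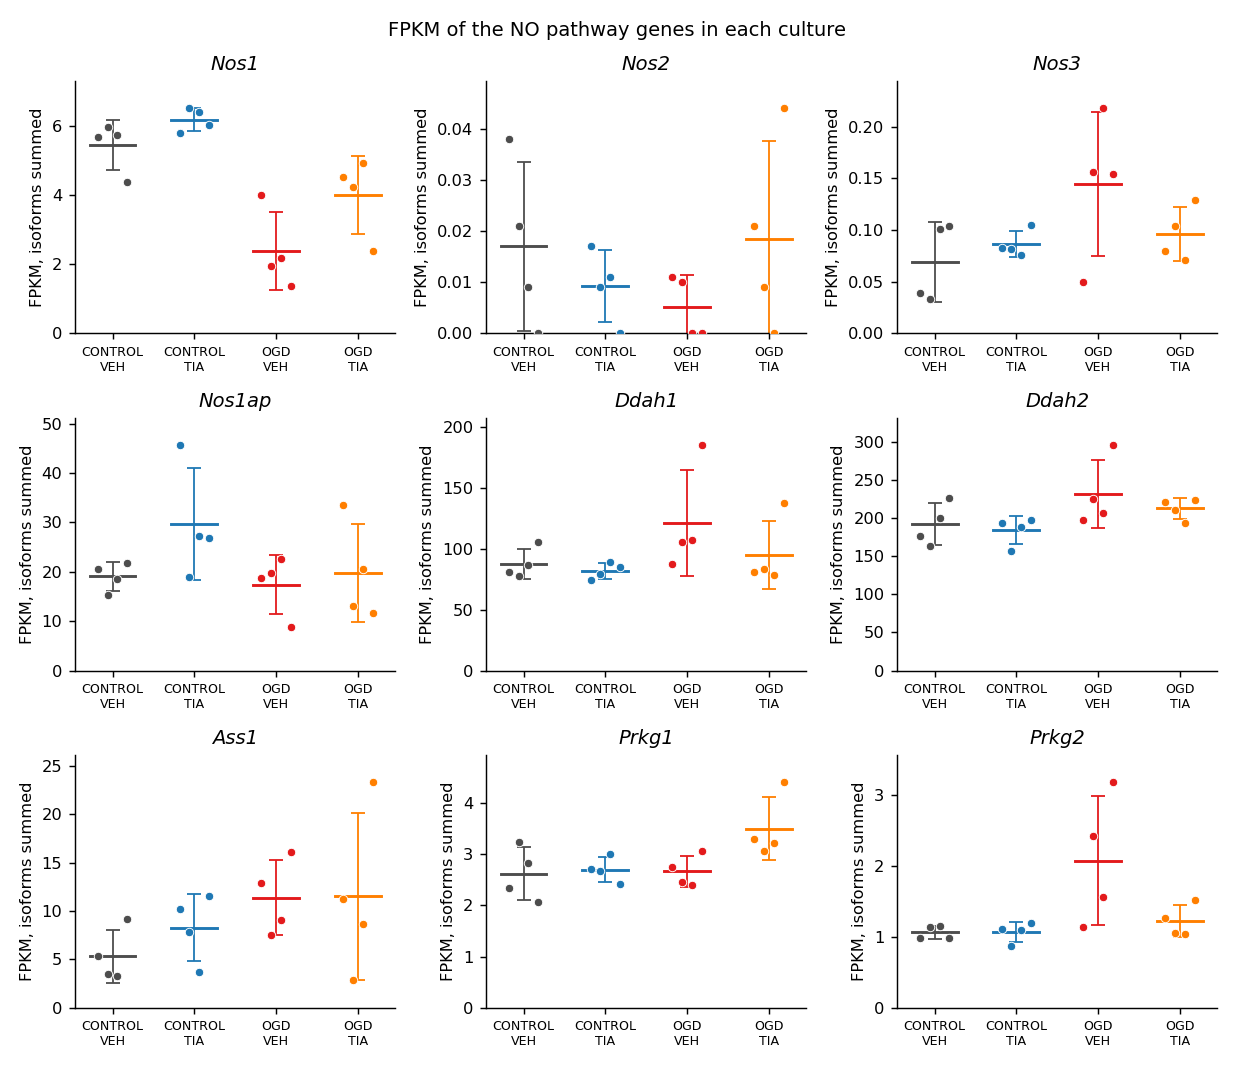
FPKM, summed over isoforms, of each of the 9 genes (linear axes from 0, one panel per gene). Points are the 4 cultures of each group, horizontal bars the group means and whiskers the SD; Nos1 lay between 4.39 and 5.98 FPKM in CONTROL-VEH and between 1.39 and 4.02 in OGD-VEH.

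The first comparison asked what OGD changed in vehicle-treated neurons, and Nos1 was the one gene called of the 7 that passed the filter. Nos1, the neuronal NO synthase (ENSMUSG00000029361, chr5:117781032-117958840, plus strand, GRCm38), was at 5.69, 5.98, 5.77 and 4.39 FPKM in the 4 CONTROL-VEH cultures. In the 4 OGD-VEH cultures it was at 4.02, 1.95, 2.20 and 1.39 FPKM. The highest of the OGD-VEH values, that of culture 9, lay under the lowest control, so the groups did not overlap. On the log2 scale the fold change was −1.25 (SE 0.30, 95% interval −1.93 to −0.57), a 0.420-fold level, with an adjusted p of 0.0447 by limma. A gene was called if its adjusted p did not exceed 0.05 and its fold change reached 1 on the log2 scale in either direction. This held for 1 of the 7 genes tested and for 4.09% of the 16346 genes tested (668 genes, 393 higher and 275 lower). Without an overlap of the groups was 1 of the 7, against 22.7% of all genes tested, and 3 of the 7 (Nos1, Ass1 and Prkg2) had an unadjusted p under 0.05, against 35.0%. The call stood close to the threshold: leaving out any 1 of cultures 1, 2, 3, 4, 10, 11 and 12 moved the adjusted p to between 0.0710 and 0.121, whereas leaving out culture 9 gave 0.00388, and the log2 fold change ran from −1.53 to −1.04. Leaving out 1 culture at a time moved the count over all genes from 668 to between 1 and 2186, the last without culture 9.

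In TIA-pretreated cultures the Nos1 difference between OGD and sham did not pass the test. Nos1 was at 5.81, 6.53, 6.41 and 6.05 FPKM in CONTROL-TIA. It was at 4.53, 4.24, 4.95 and 2.38 FPKM in OGD-TIA. The groups again did not overlap, and culture 16 was well below the other 3 OGD-TIA cultures. The fold change was −0.66 on the log2 scale (SE 0.22, 95% interval −1.16 to −0.16; limma adjusted p = 0.180), in a comparison in which 0.0% of 16242 genes were called (16.2% did not overlap between groups, and 19.5% or 3174 genes had an unadjusted p under 0.05). The difference between the OGD responses with and without TIA was itself tested and did not pass, at 0.59 on the log2 scale (SE 0.38, 95% interval −0.23 to 1.41; limma adjusted p = 0.722). Between OGD-TIA and OGD-VEH, Nos1 was 1.72-fold higher by the fitted means, with overlapping groups and a log2 fold change of 0.78 (SE 0.35, 95% interval −0.02 to 1.59; limma adjusted p = 0.551). TIA without OGD left a Nos1 log2 fold change of 0.19 (95% interval −0.08 to 0.46; limma adjusted p = 0.999). None of the 7 genes was called in these 3 comparisons or in the difference of responses, and 0.0% of all genes were. A share of 0.0% means only that no gene reached the thresholds in this test. The study's own test of counts did call genes between OGD-TIA and CONTROL-TIA. Groups overlapped for all 7 between CONTROL-TIA and CONTROL-VEH, where 2.06% of 16170 genes did not overlap, and between OGD-TIA and OGD-VEH, where 3.8% of 16351 did not. The pairs of comparisons share cultures, so their values are given side by side and not as independent results.

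Nearly all Nos1 RNA was assigned to one isoform. The coding isoform ENSMUST00000142742, of 10123 bases and starting at chr5:117841850, carried 99.1% of the estimated Nos1 reads (319 to 1591 per culture, all isoforms together). The shorter coding isoform that starts at chr5:117867114 averaged 0.0538 FPKM, and 3 of 7 isoforms were at 0 throughout. Fitted as a single isoform, which was chosen after the values were seen, the 10123-base isoform had a log2 fold change of −1.26 between OGD-VEH and CONTROL-VEH (SE 0.32; limma adjusted p over all isoforms = 0.140, 0.141% of isoforms called). The start that RefSeq lists for Nos1 on GRCm38.p6, chr5:117866839, lies downstream of the start of that isoform, and the 250 bases before it overlap no annotated exon. The window is shown because it precedes the start listed for the one gene called, and it is not the promoter of its predominant isoform. It lies within the span of that isoform, and promoter activity there was not tested. Capitals mark the single match of the window to TGACG on either strand, the core of the cAMP response element, which 17.8% of 32851 promoter windows of this length hold.
Nos1 chr5:117866589-117866838 (+): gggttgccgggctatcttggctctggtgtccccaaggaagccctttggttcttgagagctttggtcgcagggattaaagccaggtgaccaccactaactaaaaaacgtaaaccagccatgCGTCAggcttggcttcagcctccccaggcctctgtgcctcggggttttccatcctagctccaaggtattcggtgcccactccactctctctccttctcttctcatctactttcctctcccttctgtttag

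Neuronal and glial marker levels differed between the same groups. The summed FPKM of 8 neuronal markers was 1975 to 2657 in CONTROL-VEH, 2043 to 2237 in CONTROL-TIA, 1027 to 1845 in OGD-VEH and 1292 to 2079 in OGD-TIA. All 8 averaged above 0.5 FPKM in every group, as did all 8 astrocyte markers, so the cultures held neurons together with other cells. Of the neuronal markers 1, the synaptic vesicle gene Syt1, was called lower in OGD-VEH (median log2 fold change of the 8 −0.96, against 0.10 over all genes). A further list held 6 genes expressed in the cortical interneurons rich in Nos1, though not only there: Gad1 and Gad2 are also among the 8 neuronal markers. Of the 6, the neuropeptide Sst was called lower in OGD-VEH than in CONTROL-VEH (log2 fold change −2.14, SE 0.48, limma adjusted p = 0.0416). The summed level of the 6 was 378 to 667 FPKM in CONTROL-VEH and 159 to 365 in OGD-VEH. Npy, another neuropeptide of these interneurons, was at 49.4 ± 21.2 and 25.0 ± 5.40 FPKM (log2 fold change −0.91, limma adjusted p = 0.0780). Sst accounted for most of the difference in the sum, from a mean of 280.0 to 77.8 FPKM. Chodl, a marker of the long-range cells among these interneurons, was at 1.57 FPKM in CONTROL-VEH and 1.79 in OGD-VEH (log2 fold change 0.19, limma adjusted p = 0.558), and Tacr1, Gad1 and Gad2 were not called. The 8 oligodendrocyte lineage markers summed to 174 to 209 FPKM in CONTROL-VEH and 239 to 667 in OGD-VEH, with Olig1, Olig2 and Sox10 called higher, and the 8 astrocyte markers summed to 753 to 1614 and 1011 to 2532, with none called. Mural cell and fibroblast markers summed to between 11.9 and 24.4 FPKM over the 16 cultures. Of all genes tested in OGD-VEH against CONTROL-VEH, 4.09% were called, and their count moved to between 1 and 2186 on leaving out 1 culture. In RNA of whole cultures, fewer cells of a type and less RNA per cell cannot be told apart, and the part of the marker levels in the Nos1 result was not tested.

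Nos2 and Nos3 were measured at the edge of detection. Nos2, the inducible synthase of activated glia and macrophages, was listed at 0 in 5 of 16 cultures and came to 18.2 estimated reads over all 16, with a highest value of 0.0440 FPKM in culture 16. Nos3, the endothelial synthase, was at 0.0390, 0.0330, 0.101 and 0.104 FPKM in CONTROL-VEH. It was at 0.05, 0.156, 0.218 and 0.154 FPKM in OGD-VEH, and the groups overlapped through culture 9. This rests on 2.76 to 20.4 estimated reads per culture, and the log2 fold change without a filter on low values was 0.51 (95% interval −0.15 to 1.16; limma adjusted p = 0.348). CONTROL-TIA lay between 0.0760 and 0.105 FPKM and OGD-TIA between 0.0710 and 0.129. Nos1 therefore supplied 95.8 to 99.6% of the estimated reads of the 3 synthases in each culture, and the mean share of Nos3 was 0.542% in CONTROL-VEH, 0.576% in CONTROL-TIA, 2.97% in OGD-VEH and 1.10% in OGD-TIA. The 8 endothelial markers summed to 0.585 to 0.802 FPKM in CONTROL-VEH and 0.647 to 1.67 in OGD-VEH. Among them the vascular growth factor receptor genes Flt1 and Kdr averaged 0.0473 and 0.0695 FPKM in CONTROL-VEH and 0.817 and 0.143 in OGD-VEH. Pecam1, the highest of the 8 in CONTROL-VEH, went the other way. It ran from 0.361 to 0.544 FPKM in CONTROL-VEH and from 0.248 to 0.327 in OGD-VEH. The defining markers Cldn5 and Cdh5 were at 0.0188 and 0.0025 FPKM in CONTROL-VEH, a mean of 0.610 and 0.202 estimated reads. They were at 0 in every OGD-VEH culture, and so few reads do not allow a comparison. The 8 microglial markers summed to at most 3.15 FPKM in any culture, and astrocytes, which can also express Nos2, were marked at the levels given for them with Nos1. The part of these marker levels in the Nos2 and Nos3 values was not tested. Nos3 overlaps Atg9b and Gm15587 on the opposite strand, and whether counting used the strand is not given in the sources used here.

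Nos1ap, which binds neuronal NO synthase and competes with PSD-95 for it, gave summed values that were dominated by short isoforms. It was at 20.7, 15.2, 18.6 and 21.8 FPKM in CONTROL-VEH, 45.6, 19.02, 27.3 and 26.9 in CONTROL-TIA, 18.7, 19.7, 22.5 and 8.76 in OGD-VEH, and 33.4, 13.2, 20.5 and 11.7 in OGD-TIA. Culture 5 was the highest of the 16, and each pair of groups compared overlapped. Log2 fold changes were −0.20 for OGD-VEH against CONTROL-VEH (95% interval −0.86 to 0.46), −0.64 for OGD-TIA against CONTROL-TIA (−1.497 to 0.21), 0.58 for CONTROL-TIA against CONTROL-VEH (0.00 to 1.15) and 0.13 for OGD-TIA against OGD-VEH (−0.78 to 1.05), with limma adjusted p of 0.646, 0.367, 0.999 and 0.882. A 419-base noncoding isoform ran from 0 to 27.3 FPKM among cultures and carried 21.8% of the summed FPKM but 7.54% of the estimated reads. The 3022-base coding isoform ENSMUST00000160456 carried 35.4% of the reads. It averaged 3.30 ± 0.348 FPKM in CONTROL-VEH, 2.75 ± 0.844 in CONTROL-TIA, 2.25 ± 0.364 in OGD-VEH and 3.02 ± 0.490 in OGD-TIA. OGD-VEH and CONTROL-VEH did not overlap for this isoform, as for 13.4% of isoforms tested, with a log2 fold change of −0.54 (SE 0.20; limma adjusted p = 0.213). With isoforms weighted by length, the CONTROL-TIA difference of the gene fell to 0.13 on the log2 scale.

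Ass1, which joins citrulline and aspartate in the recycling of arginine, had a higher mean after OGD in vehicle-treated cultures, which did not pass the test. It was at 5.36, 3.53, 3.24 and 9.20 FPKM in CONTROL-VEH. It was at 12.8, 7.46, 9.08 and 16.1 FPKM in OGD-VEH, and culture 4 of the controls overlapped this range. The log2 fold change was 1.14 (SE 0.37, 95% interval 0.31 to 1.98; limma adjusted p = 0.0722). CONTROL-TIA was at 10.2, 7.79, 3.66 and 11.49 FPKM and OGD-TIA at 11.3, 2.85, 8.61 and 23.3, so that OGD-TIA held both the lowest and the highest value of the series. Its log2 fold change was 0.24 against CONTROL-TIA (95% interval −1.17 to 1.65) and −0.27 against OGD-VEH (−1.59 to 1.05). Much of this spread lay in retained-intron isoforms of 485 and 462 bases, the values of which ran from 0 to 16.3 FPKM. The 1696-base coding isoform ENSMUST00000102840 carried 83.2% of the estimated reads and was at 5.36, 3.53, 3.24 and 4.53 FPKM in CONTROL-VEH and at 5.40, 6.37, 8.83 and 9.95 in OGD-VEH. In OGD-TIA it was at 4.19, 2.75, 3.07 and 5.29 FPKM, below every OGD-VEH culture, and in CONTROL-TIA at 6.89, 3.80, 3.66 and 5.57. Groups of this isoform did not overlap between OGD-VEH and CONTROL-VEH (log2 fold change 0.85, SE 0.26, limma adjusted p = 0.167) or between OGD-TIA and OGD-VEH (−0.98, SE 0.29, limma adjusted p = 0.724), as for 13.4% and 3.65% of isoforms tested, and neither difference passed the test. The difference between the OGD responses with and without TIA was −1.21 for this isoform (SE 0.40; limma adjusted p = 0.854).

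**Figure D2:**
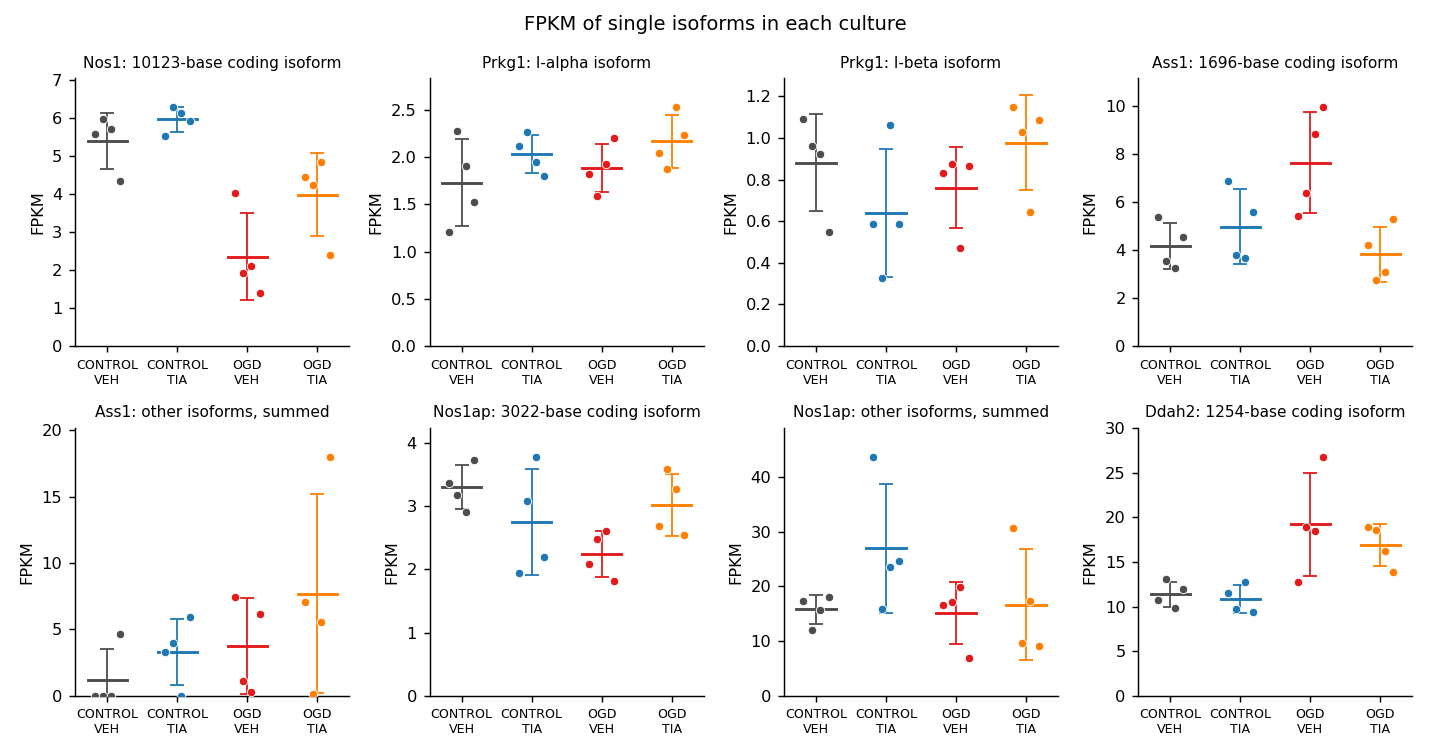
FPKM of single isoforms of Nos1, Prkg1, Ass1, Nos1ap and Ddah2, with the remaining isoforms of Ass1 and Nos1ap summed (linear axes from 0). Points are cultures, horizontal bars group means and whiskers the SD; the coding isoform of Ass1 lay between 5.40 and 9.95 FPKM in OGD-VEH and between 2.75 and 5.29 in OGD-TIA.

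Ddah1 and Ddah2 had the highest FPKM of the 9 genes, and no difference between groups was called. Ddah1, which hydrolyses asymmetric dimethylarginine, was at 80.9, 77.7, 86.3 and 105 FPKM in CONTROL-VEH and at 87.5, 105, 107 and 185 in OGD-VEH. The log2 fold change was 0.42 (SE 0.22, 95% interval −0.09 to 0.93; limma adjusted p = 0.213), and it was 0.20 without culture 12, the highest. CONTROL-TIA ran from 73.9 to 88.8 FPKM, and OGD-TIA was at 80.6, 83.2, 78.3 and 137, where culture 16 stood apart (log2 fold change 0.18, limma adjusted p = 0.602). Ddah2 ran from 164 to 227 FPKM in CONTROL-VEH, 157 to 198 in CONTROL-TIA, 197 to 296 in OGD-VEH and 194 to 224 in OGD-TIA, with log2 fold changes of 0.26 (SE 0.15; limma adjusted p = 0.260) for OGD without TIA and 0.21 (SE 0.09; limma adjusted p = 0.260) with it. A 382-base retained-intron isoform made up 65.3% of the summed Ddah2 FPKM. Of its coding isoforms, ENSMUST00000174493 had a log2 fold change of 0.71 between OGD-VEH and CONTROL-VEH (SE 0.23) and 0.63 between OGD-TIA and CONTROL-TIA (SE 0.15), with limma adjusted p of 0.175 and 0.357.

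Prkg1, the type I cGMP-dependent kinase (ENSMUSG00000052920, chr19:30564489-31765033, minus strand), was read from both of its known first exons, which give the I-alpha and I-beta forms with different leucine-zipper ends. The I-alpha isoform ENSMUST00000065067 averaged 1.95 FPKM over the 16 cultures and carried 85.3% of the estimated reads of the gene, and the I-beta isoform ENSMUST00000073581 averaged 0.814 FPKM and carried 14.3%. Their first 90 coding bases, shown because these alternative ends are where the forms differ, were identical at 31 of 90 positions. They lie in the first coding exon of each isoform (chr19:31764733-31764822 and chr19:31664192-31664281, minus strand), and capitals mark the start codon.
Prkg1 I-alpha: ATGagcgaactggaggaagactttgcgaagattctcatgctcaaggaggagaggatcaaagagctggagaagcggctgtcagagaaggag
Prkg1 I-beta: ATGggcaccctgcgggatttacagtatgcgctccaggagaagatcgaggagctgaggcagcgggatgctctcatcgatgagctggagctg
The starts that RefSeq lists for Prkg1 equal the starts of these isoforms. The 250 bases before each are shown because both isoforms were detected, with a GC box (GGGCGG on either strand, held by 32.7% of windows) in capitals.
Prkg1 I-alpha chr19:31765034-31765283 (−): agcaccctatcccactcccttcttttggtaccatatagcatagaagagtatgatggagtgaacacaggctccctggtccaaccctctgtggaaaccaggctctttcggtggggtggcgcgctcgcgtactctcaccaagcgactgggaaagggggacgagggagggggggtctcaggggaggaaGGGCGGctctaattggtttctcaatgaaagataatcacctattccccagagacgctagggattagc
Prkg1 I-beta chr19:31664371-31664620 (−): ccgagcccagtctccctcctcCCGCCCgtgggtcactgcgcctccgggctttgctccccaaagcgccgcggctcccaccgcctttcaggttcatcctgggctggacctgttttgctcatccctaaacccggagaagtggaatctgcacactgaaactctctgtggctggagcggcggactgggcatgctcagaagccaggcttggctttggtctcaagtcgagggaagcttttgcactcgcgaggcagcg

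Every window was searched on both strands for TGACGTCA (the full cAMP response element, held by 1.55% of windows), TGACG, which it contains, ACGTG (the core of the hypoxia response element, 16.6%), CACGTG (the E-box, which contains ACGTG, 6.02%), TGANTCA (the AP-1 motif, 6.75%) and GGGCGG. Neither Prkg1 window held any but the last. The Ass1 window held 1 E-box, which reads ACGTG on both strands, and 1 GC box. One Nos1ap window held 1 AP-1 motif and the other 3 GC boxes, the Ddah2 window held 2 GC boxes, and the Ddah1 window held none of the motifs. Of the 9 genes, 6 had RefSeq promoter entries, in 8 windows, and Nos2, Nos3 and Prkg2 had none.

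Prkg1 summed over isoforms was nearly level across the vehicle groups, at 2.34, 3.24, 2.83 and 2.07 FPKM in CONTROL-VEH and 2.75, 2.46, 2.40 and 3.07 in OGD-VEH. The log2 fold change was 0.04 (95% interval −0.40 to 0.48; limma adjusted p = 0.897), and it was −0.04 with median-ratio scaling. CONTROL-TIA was at 2.70, 2.66, 3.01 and 2.42 FPKM and OGD-TIA at 3.30, 3.06, 3.23 and 4.41. The lowest OGD-TIA value lay just over the highest of CONTROL-TIA, with a log2 fold change of 0.35 (SE 0.15, 95% interval 0.01 to 0.69) that did not pass the test (limma adjusted p = 0.245). Nos1 and Prkg1 were the genes whose groups did not overlap in this comparison, 2 of 7 against 16.2% of all genes. Against OGD-VEH, OGD-TIA had a log2 fold change of 0.37 (SE 0.17; limma adjusted p = 0.551). The I-alpha isoform had log2 fold changes of 0.14 (SE 0.26) and 0.09 (SE 0.18) for OGD without and with TIA, and the I-beta isoform −0.19 (SE 0.36) and 0.60 (SE 0.39), and none of these passed the test.

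Prkg2, the membrane-bound type II kinase, was closely spaced in 3 groups and wide in OGD-VEH. It was at 0.988, 1.14, 1.15 and 0.976 FPKM in CONTROL-VEH and at 1.13, 2.42, 1.56 and 3.17 in OGD-VEH, where cultures 10 and 12 were highest and culture 9 lay within the controls. CONTROL-TIA ran from 0.868 to 1.19 FPKM and OGD-TIA from 1.04 to 1.52. Its log2 fold change was 0.80 for OGD-VEH against CONTROL-VEH (SE 0.32, 95% interval 0.08 to 1.53; limma adjusted p = 0.112), and 0.17 for OGD-TIA against CONTROL-TIA (SE 0.19; limma adjusted p = 0.645). For OGD-TIA against OGD-VEH it was −0.64 (SE 0.32, 95% interval −1.38 to 0.11; limma adjusted p = 0.551). Without culture 9 the first difference was called, at 1.04 (limma adjusted p = 0.0246).

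**Figure D3:**
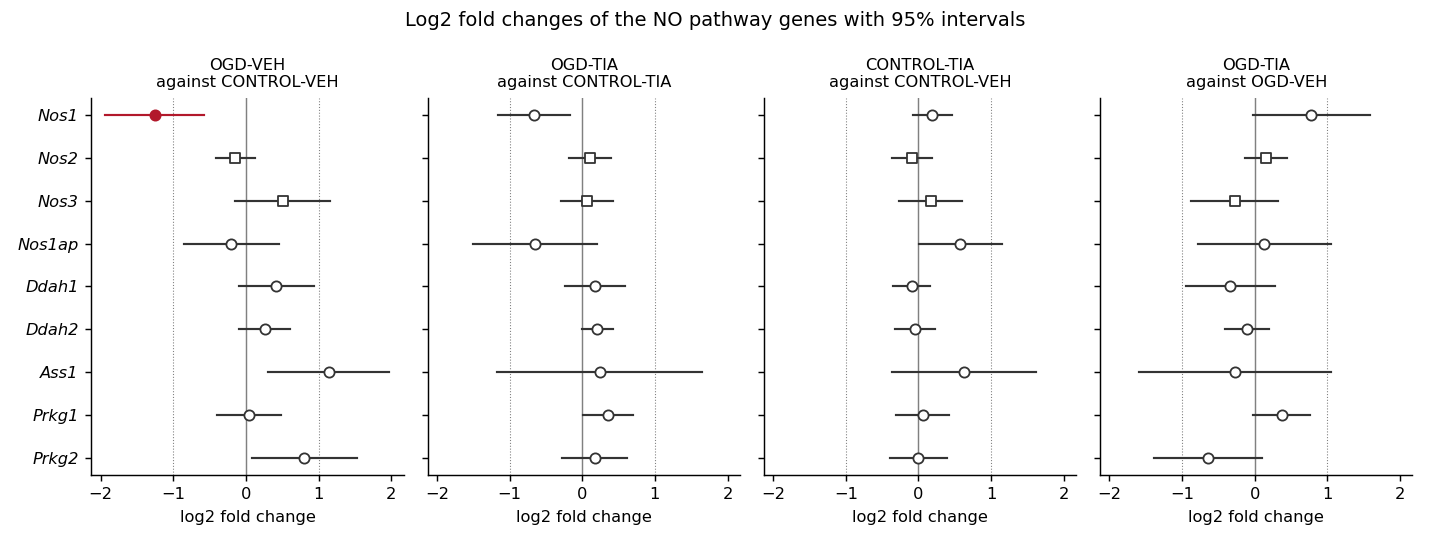
Log2 fold changes of the 9 genes with 95% intervals in the 4 comparisons (x axis, log2 of summed FPKM plus 0.1). Filled red marks a called gene, squares mark Nos2 and Nos3, fitted with no filter on low values, and dotted lines mark a log2 fold change of 1 in either direction; only Nos1 in OGD-VEH against CONTROL-VEH, at −1.25, is filled.

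The wider NO and cGMP pathway was described with 8 lists that hold 87 further genes, of which 62 passed the filter on low values. In OGD-VEH against CONTROL-VEH, 4 of the 62 (6.45%, against 4.09% of all genes) were called, 2 higher and 2 lower, and their median log2 fold change was −0.02, against 0.10 over all genes. Leaving out 1 culture brought this count to between 0 and 11, with 0 without any 1 of cultures 1, 2, 3, 4, 10, 11 and 12, and 11 without culture 9. None of the 61, 60, 62 and 62 tested was called in OGD-TIA against CONTROL-TIA, in CONTROL-TIA against CONTROL-VEH, in OGD-TIA against OGD-VEH or in the difference of responses, where 15, 4, 5 and 2 had an unadjusted p under 0.05 (14 higher and 16 lower in OGD-VEH against CONTROL-VEH). Over all genes that share was 19.5%, 3.84%, 7.91% and 6.06%.

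Among the phosphodiesterases, 1 of 11 genes tested was called in OGD-VEH against CONTROL-VEH, where 4.09% of all genes were called. Pde3a, which breaks down cAMP and cGMP, was at 1.01 to 1.23 FPKM in CONTROL-VEH and 1.78 to 5.07 in OGD-VEH (log2 fold change 1.64, SE 0.32, limma adjusted p = 0.0347), at 1.05 to 1.18 in CONTROL-TIA and at 1.77 to 3.08 in OGD-TIA. Pde2a, which cGMP itself stimulates, had a log2 fold change of −0.66 (limma adjusted p = 0.0512). Among the kinases and their targets, 2 of 10 genes tested were called lower in OGD-VEH, against the same share of 4.09% over all genes in either direction. The inositol trisphosphate receptor gene Itpr1 was at 40.1 to 57.3 FPKM in CONTROL-VEH, 27.5 to 63.1 in CONTROL-TIA, 11.4 to 37.5 in OGD-VEH and 15.8 to 60.0 in OGD-TIA (log2 fold change −1.52, SE 0.36, limma adjusted p = 0.0444). The large-conductance potassium channel gene Kcnma1 was at 17.1 to 19.4 FPKM in CONTROL-VEH, 16.99 to 18.99 in CONTROL-TIA, 5.25 to 14.1 in OGD-VEH and 9.63 to 15.3 in OGD-TIA (log2 fold change −1.03, SE 0.26, limma adjusted p = 0.0485). Neuronal marker levels were lower in the same OGD-VEH cultures, and their part in these differences was not tested.

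No cyclase or receptor of the 6 tested was called. The soluble guanylate cyclase subunit Gucy1b1, which carries the heme that binds NO, was at 57.8 to 63.2 FPKM in CONTROL-VEH, 59.2 to 67.7 in CONTROL-TIA, 19.5 to 50.0 in OGD-VEH and 36.9 to 55.6 in OGD-TIA (log2 fold change −0.91 for OGD-VEH against CONTROL-VEH, SE 0.25, limma adjusted p = 0.0528). Npr3, the clearance receptor for natriuretic peptides, had a log2 fold change of −1.28 (limma adjusted p = 0.0708). Of 15 tested partners and cofactor enzymes of the synthases none was called. Calm2, which encodes calmodulin, had a log2 fold change of −0.75 (limma adjusted p = 0.0391), past the threshold on p but not on size. In arginine supply, where 0 of 8 were called, the ornithine decarboxylase gene Odc1 had a log2 fold change of 0.66 (limma adjusted p = 0.0336) and the arginase gene Arg2 −0.59 (limma adjusted p = 0.186).

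In methylarginine turnover, with 0 of 6 called, the arginine methyltransferase genes Prmt1 and Prmt6 had log2 fold changes of 0.35 and 0.50 (limma adjusted p = 0.0505 and 0.0571). Among 12 enzymes of NO removal and S-nitrosothiol reduction 1 was called, against 4.09% of all genes. Txnrd1, cytosolic thioredoxin reductase, was at 96.8 to 137 FPKM in CONTROL-VEH and 170 to 606 in OGD-VEH (log2 fold change 1.57, SE 0.34, limma adjusted p = 0.0399). It was at 98.9 to 128 FPKM in CONTROL-TIA and at 165 to 374 in OGD-TIA. Txn2, mitochondrial thioredoxin, had a log2 fold change of 0.61 (limma adjusted p = 0.0321).

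**Figure D4:**
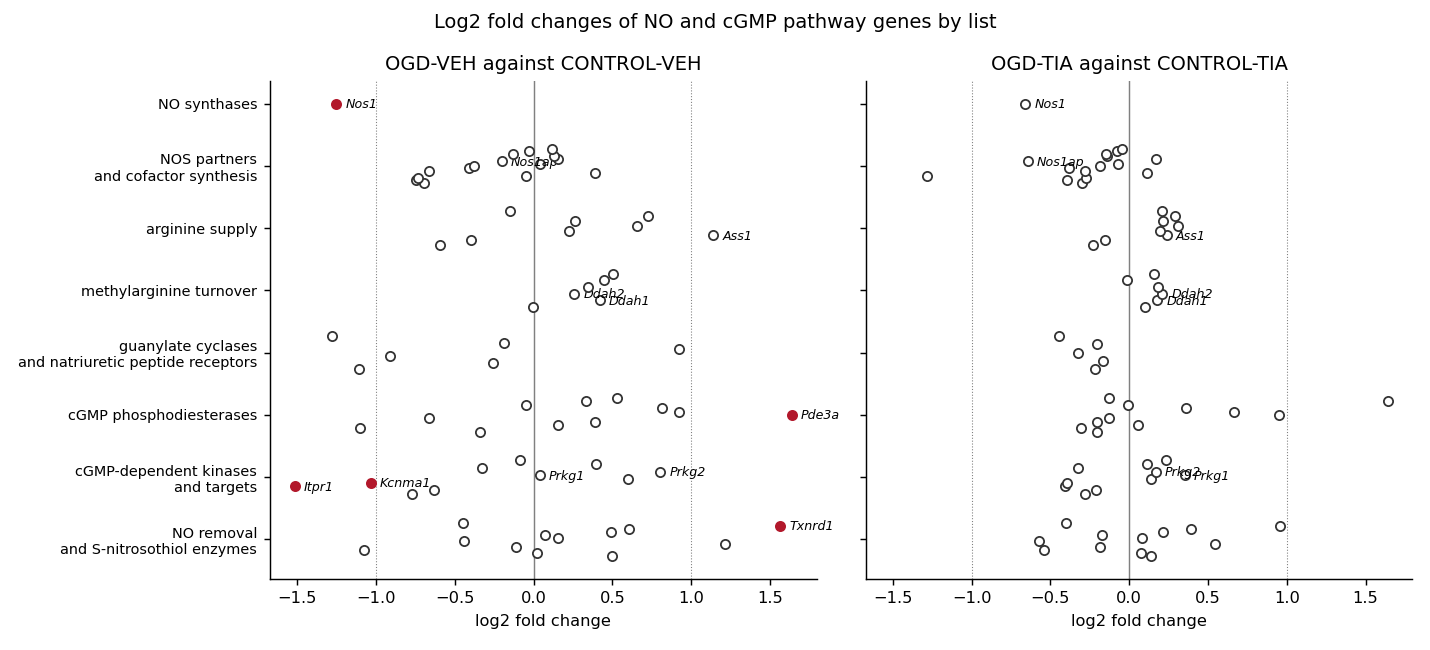
Log2 fold changes (x axis) of the genes of 8 NO and cGMP lists that passed the filter on low values, for OGD-VEH against CONTROL-VEH and OGD-TIA against CONTROL-TIA. Each circle is a gene, filled red where called. Pde3a at 1.64 and Itpr1 at −1.52 lie at the ends of the first panel, and no circle is filled in the second. Those of the 9 genes described here that passed the filter are named, as are the other called genes, and Nos2 and Nos3 are not drawn.

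The genes whose profile over the 16 cultures was most like that of each member were found among 16313 genes by the root mean square difference of standardised log2 values, in SD units. For Nos1 they were Adgrl1, the latrophilin receptor gene, at 0.140, Pnma3 at 0.143 and Frrs1l, an AMPA receptor biogenesis gene, at 0.168. For Ddah1 they were Megf10 at 0.171, Ntn4 at 0.198 and Gpm6b at 0.204. The other members that passed the filter had no profile as close. The nearest gene stood at 0.341 for Prkg2 (Atp6v1g1), 0.388 for Ddah2 (Tmem242), 0.506 for Nos1ap (Krt77), 0.564 for Ass1 (Ddrgk1) and 0.686 for Prkg1 (Vasp, which encodes a cytoskeletal substrate of the kinase and is in the list of its targets).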

How the data were processed

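The authors prepared stranded poly(A) libraries, mapped reads with STAR to GRCm38 and estimated isoform expression with eXpress. They deposited 1 FPKM value per isoform and culture, taken to be scaled by TMM because the table is named so; these are normalised values, not counts. Of 135276 lines, 74 carried no identifier and were left out. FPKM of isoforms was summed per gene symbol, and depth (20500000 to 26200000 reads per culture) and reads per gene were estimated from the FPKM that 1 read is worth, so they carry no interval. The depth shares any TMM scaling of the values, and the study states a lower range of aligned reads.

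Log2(FPKM + 0.1) was compared between groups of 4 cultures with limma 3.58.1 (moderated test with trend, R 4.3.3, two-sided) leaving out genes that averaged under 0.5 FPKM. Adjusted p-values are Benjamini-Hochberg over all genes tested, and fold changes of low genes are understated by the pseudocount. Called means an adjusted p up to 0.05 with a change of 1 or more on the log2 scale in either direction, as in the study's own test of counts, which were not used here. That test called more genes in both comparisons of OGD with sham. Nos2 and Nos3 were read from the fit without a filter. On simulated data, both groups of 4 were drawn with the means and spread of the CONTROL-VEH cultures. Of 200 genes of 16181 changed by 1.5 on the log2 scale, 73.5 to 76.5% were recovered, with at most 6 false calls. Spread in OGD-VEH could be wider (for Nos1, an SD of 47.7% of the mean against 13.2% in CONTROL-VEH). These rates therefore do not describe OGD-VEH against CONTROL-VEH. Named were all 9 genes and, of each pathway list, every called gene and the 2 with the smallest p in OGD-VEH against CONTROL-VEH, of which 1 gene is not reported here. Members of marker lists are named as examples. The genes and lists were chosen with earlier results of these data known. Of all isoforms, 99.89% were found in GENCODE M21. Promoters are RefSeq on GRCm38.p6. Alternatives were another pseudocount, filter, scaling or weighting of isoforms or cultures, 1 fit over 16 cultures, and each culture left out; fits of single isoforms and counts over the pathway lists were added after the data were seen.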

Additional observations from a re-analysis of the deposited data

Results flagged for a closer look

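Ddah1 in OGD-TIA was at 137.1 FPKM in culture 16, far from the other 3 cultures of the group (78.3 to 83.2 FPKM). The gap to the next culture was a larger share of the range of the group than Dixon's 95% critical value. It was 1 of 36 groups of a gene and a condition tested, and chance alone flags about 1 in 20. The cause was not tested.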

How the results depend on the processing

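No paired analysis was run because the cultures are numbered 1 to 16 across the groups and the labels name no shared preparation. Ass1 was highest in the last culture of every group, at 9.20, 11.49, 16.1 and 23.3 FPKM in cultures 4, 8, 12 and 16. Ddah1 was highest and Nos1 lowest in cultures 4, 12 and 16 of their groups, but not in culture 8. Not all 9 genes followed this order, and whether cultures at the same place in each group are related was not tested. The genes of the 9 called in OGD-VEH against CONTROL-VEH numbered 1 as reported (Nos1), 0 when low values were not filtered or the pseudocount was 1, 2 (Nos1, Ass1) with quality weights for cultures, and 0 to 2 on leaving out 1 culture. With weights, Nos1 was also called in OGD-TIA against OGD-VEH (1 gene). Of other pathway genes, 4 were called as reported, 0 with no filter, 9 with all 16 cultures in 1 fit, 7 with weights and 0 to 11 on leaving out 1 culture. Over all genes, the 668 calls became 36 with no filter, 1412 with all 16 cultures, 1929 with weights, 1122 with isoforms weighted by length, 75 isoforms by themselves, and 1 to 2186 on leaving out 1 culture. The 0 calls of OGD-TIA against CONTROL-TIA became 7, 1, 80, 73 and 16 under the same settings and 0 to 16. Those of OGD-TIA against OGD-VEH became 4 with no filter, 408 with weights, 13 isoforms and 0 to 2, and those of the difference of responses 3, 101 and 0 to 1 with no filter, weights and 1 culture left out. In CONTROL-TIA against CONTROL-VEH they became 4 with no filter and 5 isoforms.

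Of 758 values of single genes, 715 kept direction and side of the threshold, 31 turned direction, 9 lost the call and 3 gained it. None of the values that turned had passed the test. Only Nos1 in OGD-VEH against CONTROL-VEH was called as reported, so no other value could lose a call, and all 9 losses were of it. They came with no filter, with a pseudocount of 1, and without any 1 of cultures 1, 2, 3, 4, 10, 11 and 12. Ass1 in OGD-TIA against CONTROL-TIA turned to −0.249 with weights and −0.0707 by length. Nos1ap turned to −0.0758 in OGD-TIA against OGD-VEH and 0.106 in OGD-VEH against CONTROL-VEH with weights, and to 0.0597 in the difference of responses by length. Prkg1 turned to −0.0425 with median-ratio scaling and −0.113 with weights in OGD-VEH against CONTROL-VEH, and to −0.00228 with weights in CONTROL-TIA against CONTROL-VEH. Prkg2 in that comparison turned to 0.000552 with a pseudocount of 1, 0.00688 with median-ratio scaling and 0.00757 by length. Leaving out 1 culture gave log2 fold changes of either sign for Ass1 (−0.216 to 0.780), Ddah1 (−0.0139 to 0.255) and Nos3 (−0.0132 to 0.127) in OGD-TIA against CONTROL-TIA. It did so for Ass1 (−0.727 to 0.268), Ddah2 (−0.174 to 0.0211) and Nos1ap (−0.166 to 0.341) in OGD-TIA against OGD-VEH, and for Nos1ap (−0.352 to 0.0987) and Prkg1 (−0.0615 to 0.145) in OGD-VEH against CONTROL-VEH. The same held for Ddah2 (−0.126 to 0.0301), Prkg1 (−0.0432 to 0.163) and Prkg2 (−0.0514 to 0.0856) in CONTROL-TIA against CONTROL-VEH, and for Ddah2 in the difference of responses (−0.134 to 0.0749). The causes were not tested. Reads limit Nos2 and Nos3, which had at most 3.71 and 20.4 estimated reads per culture.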
